A study of Mus musculus with 13 samples.

Results

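Matrix metalloproteinases (MMPs), ADAMTS proteases and the tissue inhibitors of metalloproteinases (TIMPs) were described across normal lung, the lung of tumor-bearing mice and mammary tumor. The members were chosen by name: every protein-coding gene whose mouse symbol is Mmp with a number, Adamts with a number, or Timp1 to Timp4. This gave 45 genes, 22 Mmp, 19 Adamts and 4 Timp, of 21581 protein-coding genes and 46679 gene identifiers in all. Mmp1a, annotated as a polymorphic pseudogene, was the 1 name left out.

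MMPs are zinc-dependent proteases that cut collagens, elastin, proteoglycans and other matrix and cell-surface proteins, and most are made as inactive precursors. ADAMTS proteases are secreted relatives with thrombospondin repeats: some cut proteoglycans such as versican and aggrecan, others trim procollagens or cut von Willebrand factor. TIMPs bind the active sites of these enzymes, and Timp3, which is held in the matrix, also inhibits several ADAM and ADAMTS proteases. In lung and tumor these genes are known for matrix turnover around alveoli, vessels and invading cells.

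The samples were total RNA of female FVB mice aged 10 weeks. Normal lung came from 4 mice without a tumor. Tumor-bearing lung came from 4 mice given 250000 Met1 cells, a mammary tumor line from mouse, in the inguinal mammary fat pad at 8 weeks of age, 2 weeks before tissue was taken, and breast tumor came from 3 of those mice (6877, 6880 and 6881). Met1 is 1 transplanted line, so the 3 tumors are 3 hosts of the same cells. Normal lungs 6886 and 6888 were prepared in both preparation batches and counted once, with the batch 1 library. Batch 1 otherwise held tumor-bearing lungs 6879, 6880 and 6881, and batch 2 held normal lungs 6887 and 6893, tumor-bearing lung 6877 and all tumors. The series states its purpose as the effect of a distal mammary tumor on the lung.

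Libraries held 8321037 to 13982903 estimated counts. Markers fitted the labelled tissues: 7 alveolar epithelial markers summed to 6413 to 14161 CPM (counts relative to a TMM-scaled library size) in the lungs and 3.98 to 19.8 in the tumors, and 8 mammary epithelial markers to 108 to 204 and 1014 to 1479. In such bulk samples fewer cells of a type and less RNA per cell cannot be told apart. Heart muscle markers stood apart in 2 libraries, with summed CPM of 763 in tumor-bearing lung 6879 and 490.2 in the batch 2 library of normal lung 6886, against 5.76 to 41.2 in all other libraries.

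Of the MMP genes, 9 lie in 1 cluster of 427 kb on chromosome 9 (GRCm38, chr9:7272514-7699585, GENCODE M21), in the order Mmp13, Mmp12, Mmp1b, Mmp3, Mmp10, Mmp8, Mmp27, Mmp20 and Mmp7. The cluster holds Mmp3, Mmp13, Mmp12 and Mmp10, which were high in the tumors, beside genes that were near 0 in all tissues. The 100 bases before their RefSeq transcription start (GRCm38.p6, plus strand) are therefore shown, 5′ to 3′, with Mmp7 and Mmp8 of the same cluster for comparison; capitals mark the motif TGANTCA, whose forms TGACTCA and TGAGTCA are the known site of AP-1 transcription factors.
Mmp3, chr9:7445722-7445821: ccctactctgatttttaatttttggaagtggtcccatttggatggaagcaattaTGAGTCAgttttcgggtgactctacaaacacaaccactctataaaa
Mmp10, chr9:7502242-7502341: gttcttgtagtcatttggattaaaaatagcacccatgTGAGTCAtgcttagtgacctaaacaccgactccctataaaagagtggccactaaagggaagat
Mmp12, second start, chr9:7347274-7347373: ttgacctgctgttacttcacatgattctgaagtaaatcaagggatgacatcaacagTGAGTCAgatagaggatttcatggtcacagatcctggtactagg
Mmp13, chr9:7272414-7272513: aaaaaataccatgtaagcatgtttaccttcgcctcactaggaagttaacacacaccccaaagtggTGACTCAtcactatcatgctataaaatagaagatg
Mmp7, chr9:7691990-7692089: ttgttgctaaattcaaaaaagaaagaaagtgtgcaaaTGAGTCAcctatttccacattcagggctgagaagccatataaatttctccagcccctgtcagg
Mmp8, chr9:7558329-7558428: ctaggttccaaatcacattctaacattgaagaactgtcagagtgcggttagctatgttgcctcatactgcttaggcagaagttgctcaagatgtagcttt

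Relative to the start, the motif began at −46 in Mmp3, −63 in Mmp10, −44 at the second start of Mmp12, −35 in Mmp13 and −63 in Mmp7. The stretch shown for Mmp12 lies in an intron of the transcripts that begin at its first start, whose own window holds no match. TGANTCA reads the same on both strands, so 1 search of each window of 300 bases (250 before to 50 after the start) covered both. RefSeq windows were found for 31 of the 45 members, and 7 of them (22.6%) held the motif, against 8.97% of 27025 genes with a window. All 7 are in the cluster, where 7 of 9 genes held it and Mmp8 and Mmp27 did not. Of the 22 members outside the cluster 0 held it, among them Timp1, Timp3, Mmp14 and Adamts13. Mmp1b, Mmp20 and Mmp7 carried the motif at 0 to 3 estimated counts per group, so a match was also found in genes with almost no RNA here. A match describes these letters, not a bound site.

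The comparisons of breast tumor with the lungs ask how the tumor and the lung differ. They share the 3 tumors and a single fit of 11 libraries with group and batch as terms, tested with the quasi-likelihood test of edgeR and Benjamini-Hochberg adjustment over all 18297 genes tested at a threshold of 0.05. Against normal lung, 36 of the 45 members passed the filter on low counts and 26 passed the threshold, beside 49.3% of all genes tested. Of the 26, 10 were higher in tumor, beside 24.5% of all genes, and 16 were lower, beside 24.7%. Against tumor-bearing lung, 26 members also passed, beside 46.3% of all genes, with 10 higher (all genes 22.6%) and 16 lower (all genes 23.7%). The median log2 fold change of the 36 was −0.28 against normal and −0.54 against tumor-bearing lung, beside −0.04 and −0.10 over all genes. Mmp13, Mmp8, Adamts4 and Adamts18 were too low in the lungs to be tested in the lung comparison. In the fit of 11 libraries Mmp13, Adamts4 and Adamts18 passed the filter through their tumor counts. Mmp8, Mmp17, Timp4, Adamts17 and Adamts20, with at most 1.25 CPM in every tumor, passed it through their lung counts. Passing the filter thus already favoured the direction of their calls, which are among the 10 higher and 16 lower. The 9 members not tested in any comparison had at most 1.52 CPM in every lung and at most 0.468 in every tumor, except Mmp10.

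Timp1 was high in every tumor and low in every lung, and Timp3, the leading inhibitor transcript of the lung, was low in every tumor. Timp1 (chr X, 20870166 to 20874735), a secreted inhibitor of most MMPs, had 1.92, 2.03, 0.977 and 0.912 CPM in normal lungs 6886, 6887, 6888 and 6893. It had 2.11, 1.87, 0.942 and 1.26 CPM in tumor-bearing lungs 6879, 6880, 6881 and 6877, and 32.1, 25.8 and 27.4 CPM in tumors 6877, 6880 and 6881; the same order of mice is used below. The tumors lay above every lung without overlap, while the ranges of the lung groups overlapped. Timp1 lies within Syn1, as Timp3 does within Syn3, on the opposite strand, and whether the counting used strand is not given in the sources used here. Timp1 rose by a log2 fold change of 4.32 (SE 0.41, edgeR adjusted p = 4.99e-06) against normal and 4.30 (SE 0.47, edgeR adjusted p = 1.88e-05) against tumor-bearing lung.

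Timp3 (chromosome 10, 86300372 to 86349506) had 840.0, 509.6, 908 and 622 CPM in normal lungs, 625, 700.3, 564 and 587 CPM in tumor-bearing lungs, and 26.2, 30.4 and 34.2 CPM in tumors. Every tumor was below every lung. It fell with log2 fold changes of −4.35 (SE 0.23, edgeR adjusted p = 6.16e-08) against normal and −4.07 (SE 0.24, edgeR adjusted p = 1.63e-07) against tumor-bearing lung. The 6 endothelial markers also were lower in tumors, with summed CPM of 66.8 to 87.6 against 1152 to 2670 in the lungs and 0 of them without counts, and 7 smooth muscle and pericyte markers summed to 96.6 to 110.0 against 190.0 to 600.3; their part in the fall of Timp3 was not tested.

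Timp2, which inhibits MMPs and also takes part in the activation of Mmp2 by Mmp14, had 569, 305, 542 and 374 CPM in normal lungs, 248, 347, 341 and 335 in tumor-bearing lungs, and 309, 209 and 193 in tumors. The ranges of tumor and normal lung overlapped. It passed as lower in tumor than in normal lung by a small margin (log2 fold change −0.72, SE 0.27, edgeR adjusted p = 0.0405), a call lost in 13 of 23 alternatives (8 of them a single library left out, among these tumor 6881 with −0.59 and tumor-bearing lung 6877 with −0.53), and did not pass against tumor-bearing lung (−0.19, SE 0.28, edgeR adjusted p = 0.610). Timp4, an inhibitor best known from heart, had 0.355 to 1.69 CPM in normal lungs, 0.450 to 4.10 in tumor-bearing lungs and 0 to 0.156 in tumors, where 3 estimated counts were found in all. It passed as lower in both comparisons (edgeR adjusted p = 0.0188 and 0.0136), and its ratio of normal lung to tumor was 12.8 (exact 95% counting interval 4.14 to 63.8). The call against normal lung was lost without tumor 6877 (−3.10), tumor 6880 (−3.42) or normal lung 6887 (−2.93) and on the TPM scales. The highest lung value, 4.10 CPM, belonged to tumor-bearing lung 6879, the library with 763 CPM of heart muscle markers.

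Set per length, the make-up of the inhibitors can be compared between genes. Values per length are the deposited TPM (transcript share corrected for length), rescaled so that protein-coding genes sum to the same total in every library. Timp3 made up 60.1 ± 1.50% (SD, n = 4) of the summed TIMP TPM in normal lung, 64.3 ± 3.89% (SD, n = 4) in tumor-bearing lung and 7.43 ± 2.07% (SD, n = 3) in tumor. Timp1 made up 0.665 ± 0.379%, 0.795 ± 0.278% and 33.8 ± 2.64%, and Timp2 39.1 ± 1.47%, 34.7 ± 4.29% and 58.8 ± 4.69% in the same groups. Tumors thus carried mainly Timp2 and Timp1, and lungs mainly Timp3 and Timp2, in every library.

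**Figure D1:**
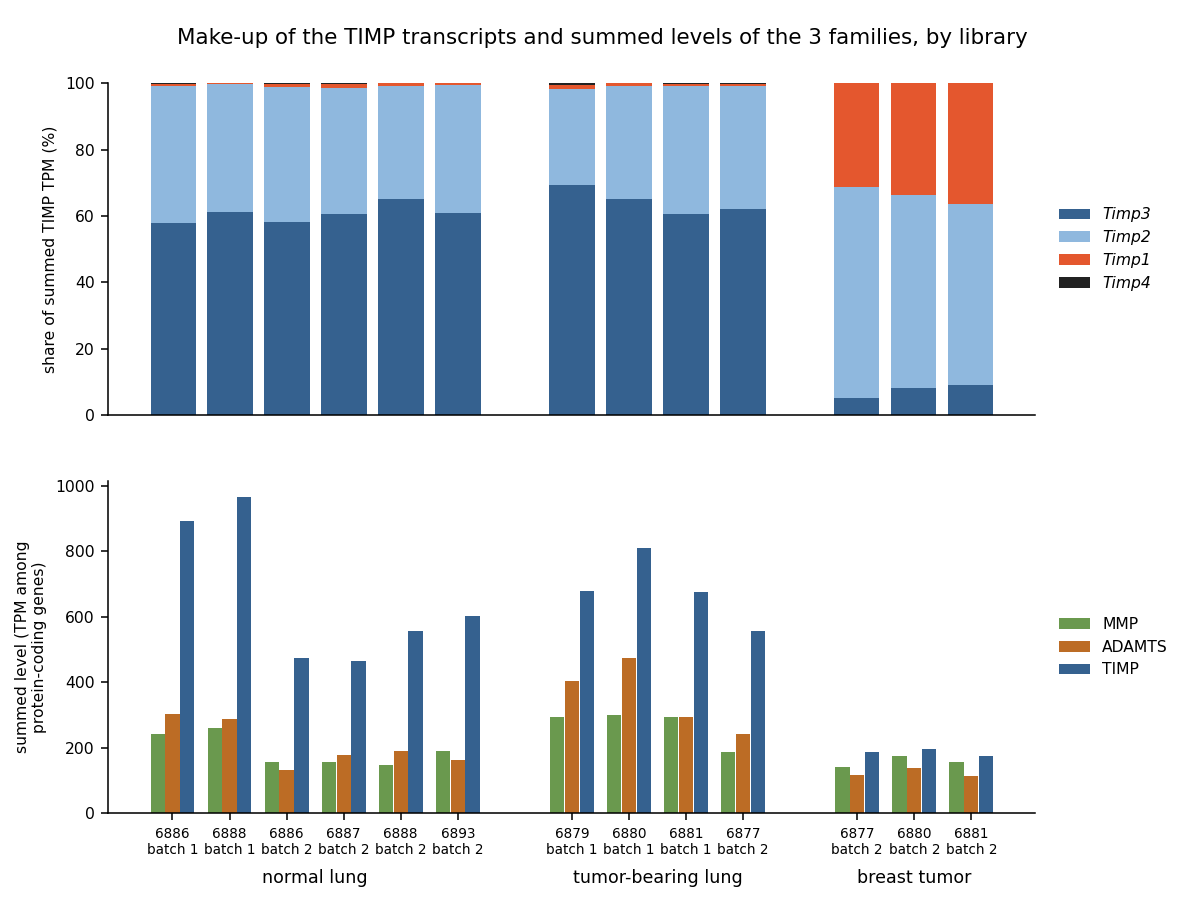
Upper panel: share of each TIMP in the summed TIMP TPM (percent), 1 stacked bar per library. Lower panel: summed level of the MMP, ADAMTS and TIMP genes (TPM among protein-coding genes), 1 bar per family and library; labels give mouse and batch. Timp1 takes 31.2 to 36.4% in the 3 tumors and at most 1.20% in any lung, and the summed TIMP level is 175 to 196 TPM in tumors and 465 to 965 in lungs.

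The summed TIMP level was 731 ± 237 TPM (SD, n = 4) in normal lung, 681 ± 104 (SD, n = 4) in tumor-bearing lung and 186 ± 10.6 (SD, n = 3) in tumor. The summed MMP level was 212 ± 47.5, 269 ± 54.1 and 157 ± 16.4 TPM, and the summed ADAMTS level 233 ± 72.4, 353 ± 105 and 122 ± 13.7 TPM. Summed TIMP over summed MMP gave ratios of 2.98 to 3.72 for normal lung, 2.29 to 2.96 for tumor-bearing lung and 1.13 to 1.33 for tumor. In batch 1 the ratios were 3.68 and 3.72 for normal and 2.29 to 2.69 for tumor-bearing lung. In batch 2 the 4 normal lungs had 2.98 to 3.79 and the 1 tumor-bearing lung 2.96, the lowest of the batch 2 lungs by a narrow margin. These sums over members carry no test.

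By level per length, the 5 leading members of normal lung were Timp3 (439 ± 141 TPM), Timp2 (287 ± 97.9), Adamts2 (80.6 ± 52.6), Mmp15 (49.1 ± 9.86) and Mmp11 (49.0 ± 18.0; SD, n = 4). In tumor-bearing lung they were Timp3 (438 ± 78.6 TPM), Timp2 (235 ± 38.9), Adamts2 (104 ± 45.9), Adamts10 (74.7 ± 20.9) and Mmp15 (74.0 ± 11.5; SD, n = 4). In tumor they were Timp2 (109.7 ± 12.8 TPM), Timp1 (62.9 ± 3.97), Mmp14 (45.0 ± 16.5), Mmp3 (27.4 ± 4.01) and Adamts2 (26.3 ± 11.3; SD, n = 3). From the third place on, neighbours among these 5 lay within 1 SD of each other, except Mmp14 and Mmp3 in tumor.

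**Figure D2:**
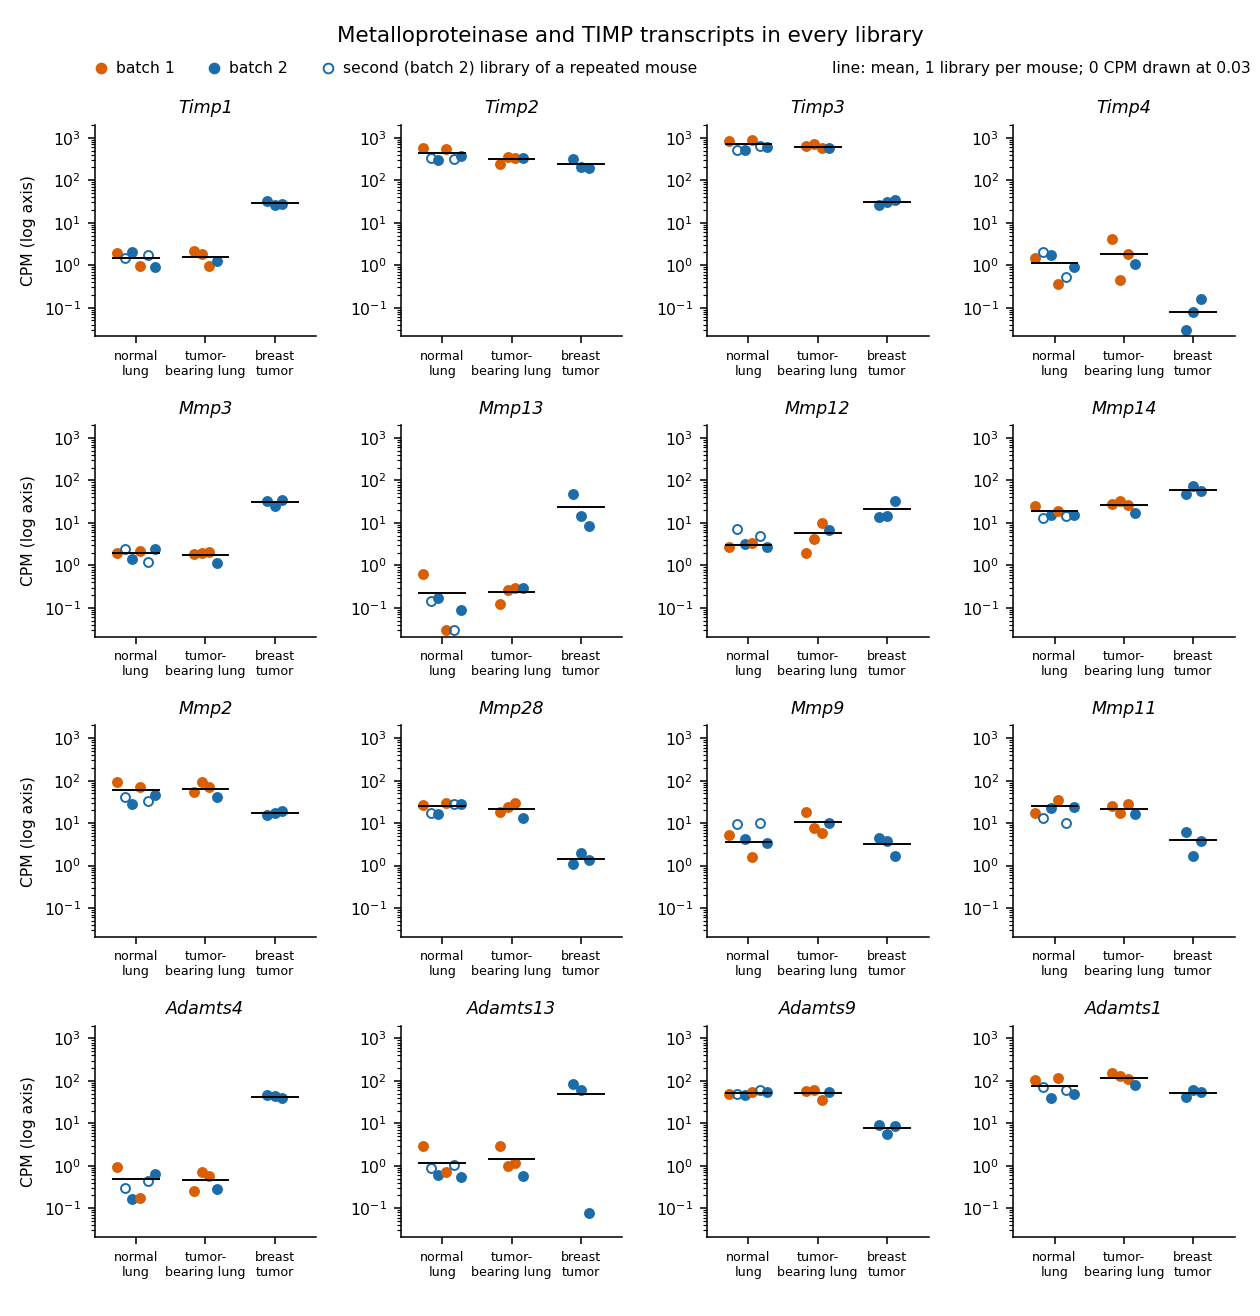
CPM on a log axis of 16 members in each library of normal lung, tumor-bearing lung and breast tumor; colour gives the batch, open circles the second library of a repeated normal mouse, lines the mean over mice, and libraries with 0 counts lie at the bottom of the axis. Timp1, Mmp3, Mmp13 and Adamts4 are higher in all 3 tumors than in any lung, Timp3, Mmp28 and Adamts9 lower, and Adamts13 is high in 2 of 3 tumors.

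Among the collagenases, which cut triple-helical collagen, Mmp13 was high in the tumors and Mmp8 low everywhere. Mmp13 had 0.614, 0.169, 0 and 0.0912 CPM in normal lungs, 0.124 to 0.290 in tumor-bearing lungs, and 47.0, 14.6 and 8.42 CPM in tumors 6877, 6880 and 6881. All tumors were above all lungs, but they spread widely around their mean of 23.4 ± 20.7 CPM (SD, n = 3). It rose by 6.91 on the log2 scale (SE 0.98, edgeR adjusted p = 0.000119) against normal and by 6.90 (SE 1.14, edgeR adjusted p = 0.000426) against tumor-bearing lung. Mmp8, the collagenase of neutrophil granules, had 0.384 to 1.46 CPM in normal lungs, 0.435 to 1.74 in tumor-bearing lungs and 0.0780 to 0.479 in tumors; it fell (log2 fold change −2.39, SE 0.67, and −3.01, SE 0.73) against the lung groups (edgeR adjusted p = 0.0113 and 0.00515). Mmp1b had 1 count in 1 tumor and 0 in every lung.

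Of the stromelysins, Mmp3 and Mmp10 were tumor transcripts in these libraries and Mmp11 a lung transcript. Mmp3, or stromelysin 1, which cuts many matrix proteins and activates other MMP precursors, had 1.99, 1.44, 2.22 and 2.37 CPM in normal lungs, 1.86, 1.93, 2.10 and 1.16 in tumor-bearing lungs, and 33.0, 24.8 and 33.9 in tumors. The 3 tumors stood close together and far above every lung. The gain was 4.11 (SE 0.29, edgeR adjusted p = 5.08e-07) and 4.39 (SE 0.33, edgeR adjusted p = 1.31e-06) on the log2 scale against normal and tumor-bearing lung.

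Mmp10, a close relative of Mmp3 and its neighbour in the cluster, had 38, 21 and 5 estimated counts in tumors 6877, 6880 and 6881 and 0 in all 10 lung libraries. It failed the filter on low counts. Set against a floor of 3 counts over the group, it was at least 29.5-fold higher in tumor than in normal lung and at least 30.0-fold higher than in tumor-bearing lung; without the filter edgeR called it in both comparisons (adjusted p = 0.000485 and 0.0129). Mmp13 and Mmp10 had the same order across the tumors, with 6877 highest and 6881 lowest. Mmp11, activated inside the cell by furin and often described in stroma, had 17.8 to 35.8 CPM in normal lungs, 16.8 to 27.9 in tumor-bearing lungs, and 6.22, 1.72 and 3.90 in tumors, and it fell (log2 fold change −2.54, SE 0.42, and −2.25, SE 0.46; edgeR adjusted p = 0.000369 and 0.00178).

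The gelatinases, which cut denatured collagen and basement membrane collagen, were not higher in tumor. Mmp2 had 91.3, 28.8, 70.1 and 46.3 CPM in normal lungs, 55.1, 90.9, 69.3 and 41.9 in tumor-bearing lungs, and 15.6, 16.9 and 19.4 in tumors. Every tumor was below every lung, and Mmp2 fell (log2 fold change −1.20, SE 0.25, edgeR adjusted p = 0.00186, and −1.15, SE 0.27, edgeR adjusted p = 0.00443); the second call was lost without tumor-bearing lung 6877 (−0.96, edgeR adjusted p = 0.0710) and on log2(TPM + 1) (−0.14), the first on log2(TPM + 1) (−0.63, limma adjusted p = 0.0837). The log2(TPM + 1) scale used deposited TPM, of which protein-coding genes held 1.77 to 6.99%, so adding 1 shrinks differences of low genes. Mmp9 had 5.29, 4.32, 1.60 and 3.38 CPM in normal lungs, 18.4, 7.53, 5.73 and 9.95 in tumor-bearing lungs, and 4.43, 3.82 and 1.64 in tumors. Tumors and normal lungs overlapped (log2 fold change −0.20, SE 0.56, edgeR adjusted p = 0.796), whereas against tumor-bearing lung Mmp9 was lower in tumor by a small margin (−1.71, SE 0.62, edgeR adjusted p = 0.0404), a call lost in 10 of 24 alternatives, among them without tumor 6880 or 6881 (−1.84 and −1.37), tumor-bearing lung 6877 (−1.84) and each of normal lungs 6887, 6888 and 6893 (−1.63, −1.45 and −1.72).

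Among the other secreted MMPs, Mmp12 was higher and Mmp19 and Mmp28 were lower in tumor. Mmp12, the elastase of macrophages, had 2.69, 3.22, 3.38 and 2.74 CPM in normal lungs, 1.99, 4.25, 10.1 and 6.67 in tumor-bearing lungs, and 13.9, 14.7 and 33.5 in tumors. The tumors were above every lung, and the gain was 2.72 (SE 0.55, edgeR adjusted p = 0.00151) against normal and 1.74 (SE 0.59, edgeR adjusted p = 0.0296) against tumor-bearing lung. The latter was lost without tumor 6881 (1.22, edgeR adjusted p = 0.106) or tumor-bearing lung 6877 (1.92, edgeR adjusted p = 0.102), without normal lung 6887, 6888 or 6893 (1.75, 1.71 and 1.72), and in 3 other alternatives. The 7 macrophage markers summed to 123 to 177 CPM in tumors and 160.5 to 691 in the lungs, ranges that overlapped. The sum covers markers that went different ways. In tumor, 1 passed as higher and 3 as lower against normal lung, and 0 and 3 against tumor-bearing lung. Their part in the gain of Mmp12 was not tested. Mmp12 and Mmp1b also overlap on opposite strands.

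Mmp28, or epilysin, had 26.5, 16.4, 30.0 and 27.5 CPM in normal lungs, 17.9, 24.5, 29.3 and 13.2 in tumor-bearing lungs, and 1.08, 1.95 and 1.33 in tumors. Tumors lay below all lungs, and it fell in both comparisons with log2 fold changes of −3.80 (SE 0.33) and −3.39 (SE 0.35; edgeR adjusted p = 2.34e-06 and 1.40e-05). The part of the alveolar epithelial markers given above, which also were lower in tumors, was not tested. Mmp19, a secreted MMP of basement membrane substrates, had 20.8 to 28.1, 14.0 to 20.7 and 6.10 to 7.34 CPM in the 3 groups and fell (log2 fold change −1.91, SE 0.22, and −1.37, SE 0.23; edgeR adjusted p = 2.17e-05 and 0.000472); on log2(TPM + 1) the second call was lost (−0.11, limma adjusted p = 0.612). As for Mmp2, adding 1 to low deposited TPM shrinks the difference on that scale. Mmp7, Mmp20, Mmp21 and Mmp27 had 0 to 9 estimated counts per group.

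The membrane-anchored MMPs did not move one way. Mmp14, a transmembrane collagenase and activator of Mmp2, had 24.7, 15.5, 18.8 and 15.5 CPM in normal lungs, 28.1, 33.1, 26.0 and 17.4 in tumor-bearing lungs, and 48.0, 72.3 and 55.8 in tumors. All tumors were above all lungs, and it rose by 1.96 (SE 0.21, edgeR adjusted p = 1.35e-05) and 1.63 (SE 0.24, edgeR adjusted p = 0.000173). Mmp15, with Mmp11 the leading MMP of normal lung per length, had 121, 92.1, 107 and 86.7 CPM in normal lungs, 139, 132, 130.2 and 122 in tumor-bearing lungs, and 72.9, 65.5 and 46.3 in tumors. It was lowest in the tumors, with log2 fold changes of −0.60 (SE 0.19) and −0.91 (SE 0.20; edgeR adjusted p = 0.0193 and 0.00334), a call lost without tumor-bearing lung 6877 for the second (edgeR adjusted p = 0.0556) and without tumor 6881 or normal lung 6887 for the first (0.0559 and 0.0535).

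Mmp17, held by a lipid anchor, had 4.71 to 9.74, 2.98 to 5.28 and 0.718 to 1.25 CPM in the 3 groups and fell (log2 fold change −2.76, SE 0.40, and −2.13, SE 0.43; edgeR adjusted p = 0.000150 and 0.00180); on log2(TPM + 1) the second call was lost (−0.02, limma adjusted p = 0.740). Adding 1 to low deposited TPM shrinks the difference of Mmp17 on that scale. Mmp25, a lipid-anchored MMP of leukocytes, had 0.0912 to 1.35, 0.870 to 2.49 and 2.27 to 2.50 CPM. Its gain of 1.80 (SE 0.68) against normal lung passed narrowly (edgeR adjusted p = 0.0444) and was lost in 10 of 23 alternatives, 9 of them a single library left out (lowest value 1.24, without normal lung 6893), and it did not pass against tumor-bearing lung (0.60, SE 0.76). Mmp16, at 0.124 to 3.48 CPM in the lungs and 2.81 to 8.38 in tumors, and Mmp23, at 1.52 to 4.56 and 2.99 to 4.21, passed in neither comparison. Mmp24 had 28, 16 and 12 estimated counts in the 3 groups.

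**Figure D3:**
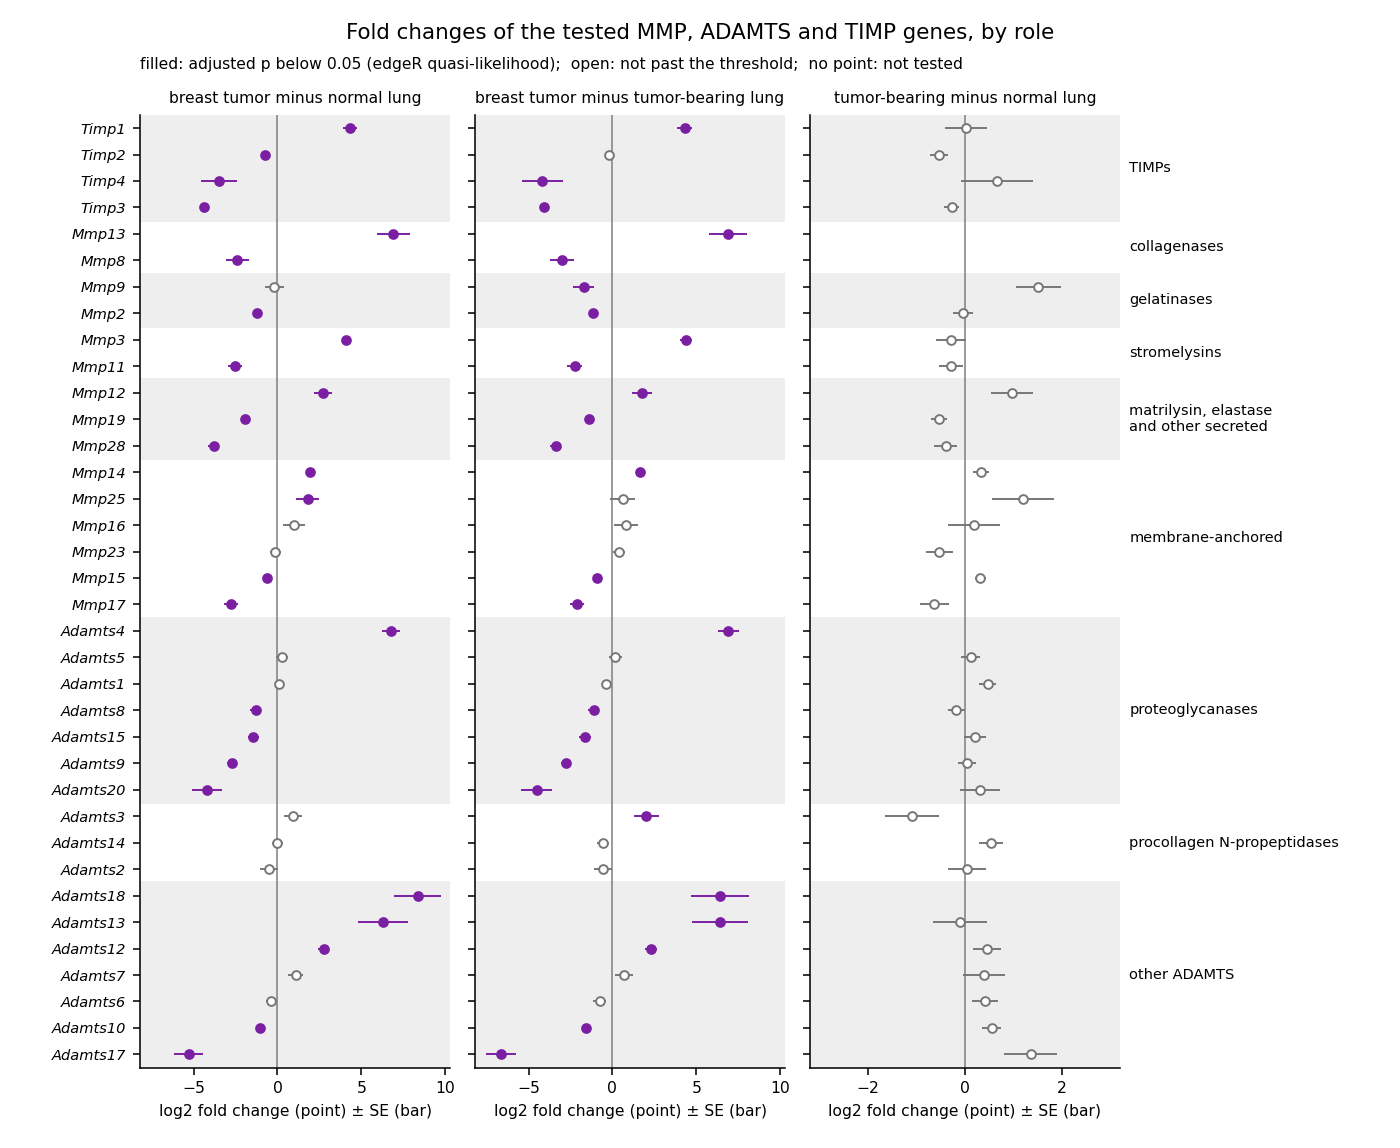
Log2 fold changes (points) with standard errors (bars) of the 36 members tested, by role, for tumor against normal lung, tumor against tumor-bearing lung, and tumor-bearing against normal lung; filled points passed an adjusted p of 0.05 and the axis of the third panel is shorter. Both tumor comparisons share the tumors and have 26 filled points each, and the lung comparison has 0.

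Of 7 tested ADAMTS genes that cut proteoglycans, 1 (Adamts4) rose in tumor and 4 fell in both tumor comparisons. Over all genes, 24.5% rose and 24.7% fell against normal lung, and 22.6% and 23.7% against tumor-bearing lung. Adamts4, an aggrecanase that also cuts versican, had 0.921, 0.169, 0.178 and 0.639 CPM in normal lungs, 0.249 to 0.708 in tumor-bearing lungs, and 45.2, 43.4 and 38.9 in tumors. The tumors differed little from one another and lay far above all lungs. It rose by 6.77 (SE 0.51, edgeR adjusted p = 9.71e-07) and 6.92 (SE 0.62, edgeR adjusted p = 4.19e-06). Adamts4 lies on chromosome 1, 171250421 to 171260637. The 6 cartilage markers summed to 248 to 503 CPM in tumors and 3.86 to 11.9 in lungs, with 0 counts of Acan in tumors. Only 3 of the 6 were tested, and against either lung group 2 passed as higher and 1 as lower in tumor. Their part in the result of Adamts4 was not tested.

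Adamts9, a protease of versican and aggrecan, had 50.1, 47.7, 53.5 and 53.8 CPM in normal lungs, 59.0, 61.3, 34.9 and 55.1 in tumor-bearing lungs, and 9.22, 5.46 and 8.89 in tumors, all below the lungs. It fell (log2 fold change −2.73, SE 0.27, edgeR adjusted p = 6.75e-06, and −2.78, SE 0.29, edgeR adjusted p = 1.30e-05). Adamts15, which also cuts versican, fell (log2 fold change −1.43, SE 0.31, and −1.63, SE 0.34), from 14.4 to 43.1 and 20.5 to 49.9 CPM in the lung groups to 4.67 to 9.21 in tumors (edgeR adjusted p = 0.00212 and 0.00203). Adamts8 fell (log2 fold change −1.31, SE 0.31, and −1.13, SE 0.33), from 12.1 to 30.9 and 12.8 to 31.7 CPM to 2.87 to 6.87 (edgeR adjusted p = 0.00408 and 0.0163); the second call was lost without tumor-bearing lung 6877 (edgeR adjusted p = 0.119).

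Adamts20 had 38 estimated counts in normal lungs, 48 in tumor-bearing lungs and 1 in the tumors, a ratio of normal lung to tumor of 27.4 (exact 95% counting interval 4.64 to 1112). Adamts5, an aggrecanase, stayed within one range in all groups: 8.67 to 15.5 CPM in normal lungs, 12.2 to 17.0 in tumor-bearing lungs and 5.75 to 15.6 in tumors. Adamts1, a protease of versican and aggrecan, had 104, 40.5, 115 and 49.9 CPM in normal lungs, 154, 128, 108 and 81.4 in tumor-bearing lungs, and 41.4, 61.4 and 55.0 in tumors. Tumor and normal lung overlapped, while every tumor was below every tumor-bearing lung. The test did not pass (0.07, SE 0.23, edgeR adjusted p = 0.825 and −0.39, SE 0.24, edgeR adjusted p = 0.207), and the sign against either lung group depended on the scaling. The fit over the 3 mice with both tissues, with the mouse as a replicate block, gave −1.06 (edgeR adjusted p = 0.00627) for Adamts1. That fit had no batch term, while lungs 6880 and 6881 were in batch 1 and all tumors in batch 2. In normal lungs 6886 and 6888, prepared in both batches, Adamts1 was higher in batch 1 by 0.56 and 0.91 on the log2 scale. Tissue and batch therefore cannot be told apart in that value.

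The 3 tested procollagen N-propeptidases, which trim fibrillar procollagens before fibrils form, gave 0 calls against normal lung, beside 49.3% of all genes. Adamts2, the third highest member of the lungs per length, had 162, 77.7, 103 and 23.4 CPM in normal lungs, 104, 152, 69.7 and 77.4 in tumor-bearing lungs, and 50.4, 19.7 and 55.1 in tumors. The normal lungs overlapped both other groups, while every tumor was below every tumor-bearing lung. Adamts2 passed in neither tumor comparison (log2 fold change −0.51, SE 0.52, edgeR adjusted p = 0.443, and −0.55, SE 0.54, edgeR adjusted p = 0.430). Adamts14 had 2.37 to 6.71 CPM over all 13 libraries. Adamts3, which also processes the lymphatic growth factor VEGF-C, had 0.773 to 2.49 CPM in tumor-bearing lungs, 1.38 to 6.02 in normal lungs and 4.68 to 11.0 in tumors. It passed against tumor-bearing lung alone (2.03, SE 0.72, edgeR adjusted p = 0.0376), a call lost without tumor-bearing lung 6877 (1.11, edgeR adjusted p = 0.288), tumor 6880 (1.60, edgeR adjusted p = 0.101), normal lung 6887 or 6888 (1.97 and 1.84), or tumor-bearing lung 6881 (1.99), and with another scaling (1.88).

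Among the 7 other ADAMTS genes tested, 3 rose and 2 fell in tumor in both comparisons. The shares of all genes were 24.5% and 24.7% against normal lung, and 22.6% and 23.7% against tumor-bearing lung. Adamts13 (chromosome 2, 26973416 to 27009628), the protease that cuts von Willebrand factor and is made mainly in the liver, had 2.92, 0.593, 0.711 and 0.547 CPM in normal lungs, 2.98, 0.965, 1.16 and 0.580 in tumor-bearing lungs, and 82.5, 61.1 and 0.0780 in tumors 6877, 6880 and 6881. Tumor 6881 had 1 estimated count and lay below every lung, so the groups overlapped although the other 2 tumors were far above. The call was 6.29 (SE 1.50, edgeR adjusted p = 0.00436) against normal and 6.45 (SE 1.67, edgeR adjusted p = 0.00772) against tumor-bearing lung, lost with voom in both (adjusted p up to 0.477) and, against tumor-bearing lung, with the mouse as a replicate block (4.53, edgeR adjusted p = 0.0895), in batch 2 alone (6.36, edgeR adjusted p = 0.0824) and with the batch 2 libraries of the repeated mice (6.35, edgeR adjusted p = 0.0525). Without tumor 6881 the values were 6.89 and 7.04.

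Adamts18 (chromosome 8, 113697126 to 113848738) had 22, 18 and 21 estimated counts in the tumors, 0 in all normal lungs and 2 in tumor-bearing lung 6881. It was at least 28.2-fold higher in tumor than in normal lung, set against 3 counts over the group, and 42.8 times the level of tumor-bearing lung (exact 95% counting interval 11.4 to 361.6); the call against tumor-bearing lung was lost without tumor-bearing lung 6877 (edgeR adjusted p = 1.00). Adamts12, a protease of cartilage oligomeric matrix protein, had 1.37 to 3.64, 2.61 to 4.70 and 9.59 to 12.7 CPM in the 3 groups and rose by 2.76 (SE 0.34) and 2.31 (SE 0.37; edgeR adjusted p = 4.60e-05 and 0.000330). All 3 tumors were above all lungs.

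Adamts17 and Adamts10 are linked to fibrillin microfibrils. Adamts17 had 4.68, 7.28, 6.22 and 15.0 CPM in normal lungs, 6.09, 29.7, 5.51 and 28.3 in tumor-bearing lungs, and 0.599, 0.156 and 0.156 in tumors. The lungs spread widely and all were above the tumors, with log2 fold changes of −5.31 (SE 0.84, edgeR adjusted p = 0.000269) and −6.66 (SE 0.88, edgeR adjusted p = 8.43e-05). Adamts10 had 37.6 to 56.9, 54.7 to 88.1 and 20.4 to 26.6 CPM and fell (log2 fold change −1.04, SE 0.22, and −1.58, SE 0.26; edgeR adjusted p = 0.00226 and 0.000403). Adamts6, at 1.55 to 3.33 CPM in the lungs and 1.40 to 1.80 in tumors, and Adamts7, at 2.30 to 6.96 and 4.91 to 7.02, passed in neither comparison. Adamts16 had 0, 3 and 11 estimated counts in the 3 groups. All tumors were in batch 2; within batch 2 alone, with 1 tumor-bearing lung, 27 of 38 tested members passed against normal and 23 of 38 against tumor-bearing lung, beside 10708 and 7096 of all 20432 genes.

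The lung comparison asks what a distal tumor does to these genes in the lung. Of 32 members tested in 8 lungs, 0 passed the threshold with edgeR, beside 0.0359% (6 of 16727) of all genes, and 0 with voom. DESeq2 and edgeR without the filter each called 1, Mmp9. At an unadjusted p below 0.05 there were 7 members (21.9%), beside 14.0% of all genes. The log2 fold changes were positive for 20 and negative for 12, with a median of 0.15 beside 0.01 over all genes.

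Mmp9, a gelatinase stored in neutrophil granules, had the largest of these differences. The values given above show tumor-bearing lung 6879 highest at 18.4 CPM and all 4 tumor-bearing above all 4 normal lungs. However, the batch 2 libraries of normal lungs 6886 and 6888 had 9.30 and 10.1 CPM, against 5.29 and 1.60 in batch 1, and lay within the tumor-bearing range. The log2 fold change was 1.51 (SE 0.47, edgeR adjusted p = 0.233), and DESeq2 gave an adjusted p of 0.0343. Within batch 1 it was 1.61 and within batch 2 0.56, and without tumor-bearing lung 6879 it was 1.11. The 8 neutrophil markers summed to 14.6 to 76.9 CPM in normal lungs and 60.3 to 153.9 in tumor-bearing lungs, where Ly6g had 0 counts. Of these, 5 were tested, and all 5 were higher in tumor-bearing lung with an unadjusted edgeR p below 0.05. Their median log2 fold change was 2.46, beside 0.01 over all genes, and 0 passed the adjusted threshold. The part of these markers in the difference of Mmp9 was not tested.

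Adamts1 had a log2 fold change of 0.47 (SE 0.17), with tumor-bearing lungs at 81.4 to 154 CPM and normal lungs at 40.5 to 115, and 0.27 and 0.55 within batches 1 and 2. Adamts10 had 0.55 (SE 0.20), but 0.85 within batch 1 and 0.04 within batch 2. Adamts17 had 1.36 (SE 0.54), which rested on tumor-bearing lungs 6880 and 6877 with 29.7 and 28.3 CPM; it was 0.66 without 6880. Mmp15 had 0.32 (SE 0.11), with all 4 tumor-bearing lungs above all normal lungs, and 0.26 and 0.46 within batches. Their edgeR adjusted p ranged from 0.283 to 0.319.

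On the lower side, Mmp19 had −0.54 (SE 0.17, edgeR adjusted p = 0.235), with the tumor-bearing lungs just below the normal lungs (20.7 against 20.8 CPM at the nearest), and −0.77 and −0.18 within batches 1 and 2. Timp2 had −0.53 (SE 0.19, edgeR adjusted p = 0.282), and −0.81 within batch 1 but 0.01 within batch 2. The normal lungs with the highest Timp2, 6886 and 6888 at 569 and 542 CPM, had 339 and 319 in their batch 2 libraries, near the 335 to 347 CPM of 3 of the 4 tumor-bearing lungs. Timp3 had −0.28 (SE 0.15, edgeR adjusted p = 0.440). Timp1 and Mmp3, both high in the tumors, did not differ detectably between the lungs, with 0.03 (SE 0.44, edgeR adjusted p = 0.985) and −0.29 (SE 0.31, edgeR adjusted p = 0.709).

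The 2 normal mice prepared in both batches gave the spread between libraries of the same lung. Batch 1 minus batch 2, in the same mouse, members had a median log2 difference of 0.41 in mouse 6886 and 0.30 in mouse 6888, beside 0.01 and 0.02 over all genes tested. More than 2-fold apart were 7 and 9 of 32 members (21.9 and 28.1%), beside 14.8 and 15.9% of all genes. Adamts2 differed most in mouse 6886, with 162 CPM in batch 1 and 16.3 in batch 2, and Mmp9 in mouse 6888, with 1.60 and 10.1. Mmp2 and Adamts8 were higher in batch 1 by more than 1 on the log2 scale in both mice (1.14 and 1.10, and 1.21 and 1.17). Mmp12 and Mmp9 were lower in batch 1 in both. Macrophage markers also were lower in batch 1 libraries of these mice (235 and 296 against 411 and 691 CPM), and smooth muscle and pericyte markers higher (521 and 574 against 237 and 233). Fibroblast markers (2503 and 1713 against 1071 and 935 CPM) and endothelial markers (2377 and 2670 against 1353 and 1255 CPM) also were higher in batch 1. Heart muscle markers were at 490.2 CPM in the batch 2 library of mouse 6886, where Adamts2 had 16.3, against 13.7 in its batch 1 library. The part of these markers was not tested.

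**Figure D4:**
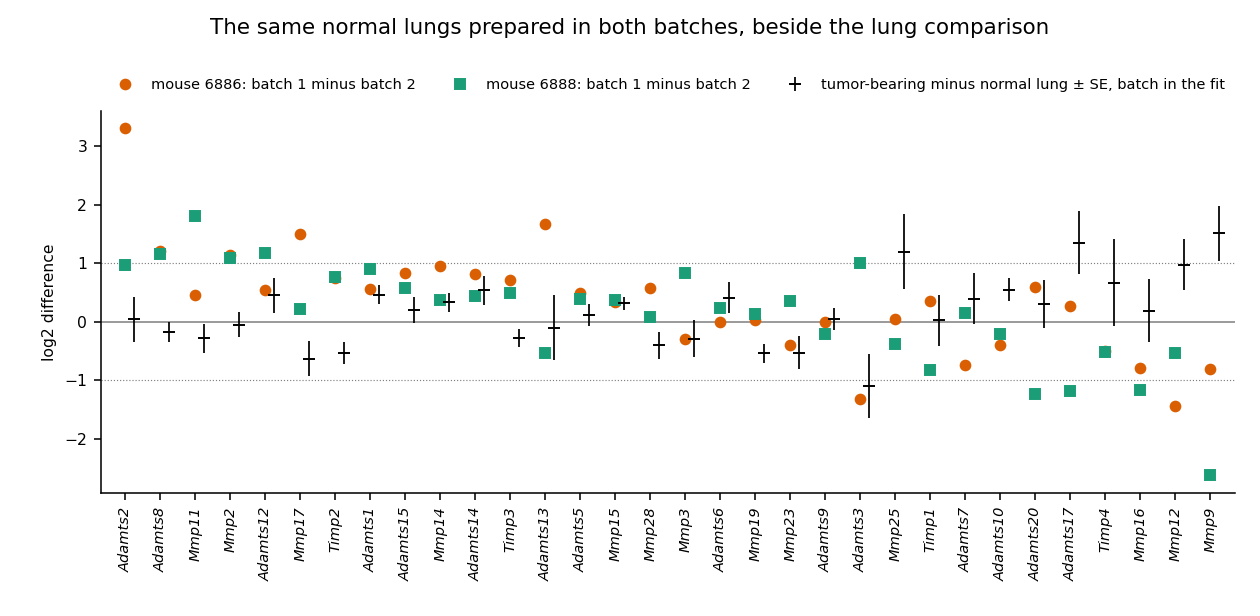
Log2 difference between the batch 1 and the batch 2 library of the same normal lung (circles, mouse 6886; squares, mouse 6888) for the 32 members tested, beside the fitted log2 fold change of tumor-bearing against normal lung with its standard error (dashes with bars); dotted lines mark 2-fold. Of the members, 7 and 9 lie beyond 2-fold between the repeats, and Mmp9 has negative repeat differences and the largest positive lung difference.

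Other genes of the pathway, from lists described by counts alone, gave 0 calls with edgeR in the lung comparison, beside 0.0359% of all genes. Over all genes tested, 24.5% rose and 24.7% fell in tumor against normal lung. Of 7 tested genes of the ADAMTS-like family and papilin, which lack protease activity, 6 fell in tumor against normal lung and 1 rose: Papln, an extracellular matrix glycoprotein, from 0.365 to 1.69 CPM in normal lungs to 32.9 to 40.3 in tumors (5.17, SE 0.48). Adamtsl5, Adamtsl2, Thsd4, Adamtsl4 and Adamtsl1 were among those that fell (−4.92, −2.65, −2.30, −2.29 and −2.27). Against tumor-bearing lung the counts also were 1 higher and 6 lower (all genes 22.6% and 23.7%).

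Of 19 tested activators, inhibitors and clearance receptors, 7 rose and 9 fell against normal lung (all genes 24.5% and 24.7%). Against tumor-bearing lung 8 rose and 8 fell (all genes 22.6% and 23.7%). Lcn2, which binds Mmp9, had 5.58 to 23.4 CPM in the lungs and 912 to 1053 in the tumors (5.50, SE 0.33). Serpine2, an inhibitor of serine proteases, Bmp1, a procollagen C-proteinase, and Plau, the urokinase activator of plasminogen, rose by 3.01, 2.44 and 2.09. Reck, a membrane-anchored MMP inhibitor, fell (−3.46, SE 0.29), from 22.0 to 94.7 CPM in the lungs to 3.12 to 3.28 in the tumors. Spock2, a matrix proteoglycan, and Pcolce2, an enhancer of procollagen C-proteinase, fell (−8.33 and −5.54).

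Of 17 tested substrates, 5 rose and 6 fell against normal lung (all genes 24.5% and 24.7%). Against tumor-bearing lung 4 rose and 5 fell (all genes 22.6% and 23.7%). Spp1 (osteopontin), Tnc (tenascin C), Col1a1 and Vcan (versican) rose by 4.52, 3.41, 2.19 and 2.17, and Vwf (von Willebrand factor) and Col4a2 fell (−4.70 and −1.78). Of 9 tested ADAM proteases 0 rose and 2 fell against normal lung, and 1 rose and 1 fell against tumor-bearing lung, beside the same shares of all genes.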

How the data were processed

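RNA of 13 tissue samples (6 normal lung libraries of 4 mice, 4 tumor-bearing lungs, 3 tumors) was made into libraries after ribosomal RNA removal from 100 ng and read as single ends of 75 bases, per the labels' protocols. Fragmentation depended on RNA quality, which is not given per library. Values were made with Salmon on mm10, and DESeq2 1.18.1 is also named, per the submitters' processing notes; the annotation version and the use of strand are not given in the sources used here. The authors' deposited estimated counts were, per gene, a constant multiple of the deposited TPM values but for 1 factor per library (largest deviation 8.83e-15 on the log2 scale over 2898 genes), so both carry the same length correction. The authors' deposited TPM values gave 1.77 to 6.99% to protein-coding genes and 21.6 to 45.5% to the largest gene, and were therefore rescaled to protein-coding genes for levels. Of 46679 identifiers, 46269 were named from GENCODE M21 (GRCm38).

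Counts were rounded and tested in R 4.3.3 with the quasi-likelihood test of edgeR 4.0.16 (TMM, filterByExpr, group and preparation batch), with Benjamini-Hochberg adjustment over all genes at 0.05. The lung comparison used 8 lungs, the tumor comparisons 11 libraries. The script was tested on simulated data. SE is the log2 fold change over the square root of F. Depth was 8321037 to 13982903 estimated counts; intervals (95%, exact) and floors of 3 counts cover counting error only. Tumor and lung of mice 6877, 6880 and 6881 come from the same animals, so the mouse was a replicate block in an alternative, which had no batch term. The correlations of their residuals were 0.179, 0.0355 and −0.133. Other alternatives were other scalings, no filter, DESeq2 1.42.0, voom and log2(TPM + 1 or 0.1) in limma 3.58.1, no batch term, other libraries of the repeated mice, single batches, protein-coding genes alone and each library left out. The TPM alternatives used the deposited values, not rescaled, so a pseudocount of 1 shrinks the differences of members with low values. Promoter windows came from RefSeq (GRCm38.p6). Named members were those past the threshold, Mmp9, Mmp3, Timp1 and Adamts1, the lowest unadjusted p in the lung comparison and the 5 highest levels per group; other members are named with ranges or counts. Members, lists and tests were chosen with earlier results of these data known. Of the members 1, not tested in any comparison, is not reported by name here.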

Additional observations from a re-analysis of the deposited data

Results flagged for a closer look

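In groups of 4 lungs, a library was singled out where its gap to the nearest other library, over the whole range, passed the 95% critical value of Dixon's test. Of 58 groups of named members tested, 4 did so, and chance gives about 5%. Adamts13, the von Willebrand factor protease, had 2.92 CPM in normal lung 6886 against 0.711 in the next. Adamts18 had 0.145 CPM in tumor-bearing lung 6881 and 0 in the other tumor-bearing lungs. Adamts20 had 0.365 CPM in normal lung 6893 against 0.921 in the next. Timp2 had 248 CPM in tumor-bearing lung 6879 against 335 in the next; without that lung its difference between the lung groups was −0.42 on the log2 scale instead of −0.53.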

How the results depend on the processing

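Against normal lung, 595 values of named members kept direction and side of the threshold over the alternatives, 38 no longer passed and 10 turned sign; against tumor-bearing lung these counts were 587, 53 and 3, with 2 newly passing, and in the lung comparison 170, 0 and 17, with 2 newly passing. In the lung comparison DESeq2 and the fit with no filter each called 1 member (Mmp9), while all genes called numbered 426 and 275 instead of 6; leaving out a library gave 0 members and up to 221 genes (without tumor-bearing lung 6877). Members called against normal lung ranged from 23 to 26 with a library left out, beside 7517 to 9100 of all genes. Against tumor-bearing lung they ranged from 19 (without tumor-bearing lung 6877) to 26. The calls over all genes there ranged from 6444, without the same lung, to 8375. Against tumor-bearing lung 14 were called on log2(TPM + 1), with 10 higher and 4 lower, beside 4142 higher and 1180 lower of all 18297 genes. On log2(TPM + 0.1) 18 were called, 11 higher and 7 lower, beside 4154 and 1987 of all genes. Against normal lung the calls on log2(TPM + 1) were 19 (10 and 9), beside 2643 and 3879 of all genes. On log2(TPM + 0.1) they were 23 (10 and 13), beside 2432 and 4211. On log2(TPM + 1) the calls lost against tumor-bearing lung were Mmp2, Mmp9, Mmp11, Mmp15, Mmp17, Mmp19, Mmp28, Adamts8, Adamts9, Adamts15, Adamts18, Adamts20 and Timp4, and against normal lung Mmp2, Mmp15, Adamts8, Adamts15, Adamts18, Adamts20, Timp2 and Timp4. Those scalings moved the median of all genes to −0.23 and −0.54 in the lung comparison, −0.19 (pseudocount 0.1) against normal and 0.22 (pseudocount 0.1) against tumor-bearing lung, and upper-quartile factors to −0.14 and −0.24 in the tumor comparisons.

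With the mouse as a replicate block (tumor against tumor-bearing lung of the same 3 mice), 24 of 34 tested members passed, 9 higher and 15 lower, beside 7810 of all 17419 genes; Adamts1 newly passed (−1.06), Adamts13 no longer did (4.53), and no other call of a named member tested in both fits changed. That fit had no batch term, with lungs 6880 and 6881 in batch 1 and all tumors in batch 2. Values that turned sign, in the lung comparison, were on log2(TPM + 1) and log2(TPM + 0.1) −0.22 and −0.24 for Adamts1, −0.10 and −0.15 for Adamts10, −0.28 and −0.37 for Mmp15, and −0.11 and −0.43 for Timp1. Timp1 was also −0.29 with the batch 2 libraries of the repeated mice, −0.0137 with all libraries, −0.30 in batch 2 alone and −0.23 to 0.27 with a library left out, and Timp2 was 0.0138 with the batch 2 libraries of the repeated mice and 0.00864 in batch 2 alone. Against normal lung Adamts1 was −0.0229 with upper-quartile factors, −0.14 and −0.18 on the TPM scales, −0.56 with no batch term, −0.0543 with the batch 2 libraries of the repeated mice, −0.12 with all libraries, −0.0561 in batch 2 alone and −0.11 to 0.22 with a library left out, and Mmp9 −0.45 to 0.14 with a library left out. Against tumor-bearing lung Adamts1 was 0.0798 and 0.0609 on the TPM scales and Adamts8 0.0101 on log2(TPM + 1). The cause was not tested. Depth limits Timp4, Mmp10, Adamts18 and Adamts20, which rest on 0 to 3 counts in the lower group.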
